A study of Mus musculus with 22 samples.

Results

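Hypoxia was set against normoxia in the whole lungs of vehicle-treated mice. The comparison takes 6 hypoxia libraries and 5 normoxia libraries, chosen by sample title from a series of 22, and covers every gene that passed a filter on low counts, which was 16638 of the 54532 in the table. All mice were young C57BL6/j males with no altered allele named in the labels, and lungs were taken on day 8. The other 11 libraries, 6 from normoxia and 5 from hypoxia, came from mice given ABT-263 (navitoclax, an inhibitor of BCL-2 family proteins that is used as a senolytic drug) at 50 mg/kg per day. They share the estimate of gene-wise spread and serve as a second comparison of hypoxia with normoxia, with no library in common. The oxygen level and the nature of the vehicle are not given in the sources used here. Each title carries its own number, but no label states that the libraries of a group come from separate animals, so p-values measure the spread between these libraries.

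In 3 libraries the title and the treatment tag name different treatments, and 1 of them, hypoxia vehicle replicate 1, enters the comparison under its title. The other 2 are ABT-263 libraries (replicate 1 of each oxygen condition). List counts printed here that change by over 1.5 times without these 3 libraries are given beside the count. Vehicle libraries held 11884731 to 15230120 counts. Normoxia libraries lay at -33 to -18.1 on the first principal component of the vehicle libraries (35% of the variance), and hypoxia libraries at 17.2 to 27.2. Replicates of a group differed from each other by more than counting error. The labels name no batch. Markers of lung were abundant in every vehicle library, with surfactant protein C (Sftpc) at 22554 to 32951 CPM (counts scaled to a common library size with TMM factors).

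Cells sense low oxygen through hypoxia-inducible factors (HIFs), transcription factors whose alpha subunits (Hif1a, Epas1) are hydroxylated and degraded while oxygen is plentiful, and which otherwise pair with ARNT and switch on genes of glycolysis, mitophagy, angiogenesis and matrix cross-linking. The lung differs from other organs in that its small arteries constrict when oxygen falls. Over days to weeks this is known to be followed by muscularisation and stiffening of vessel walls, by changes in the capillary bed, and by a rise in red cells.

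In the vehicle lungs 4380 genes, 26.3% of those tested, were called, which means a Benjamini-Hochberg adjusted p under 0.05 in the quasi-likelihood test of edgeR. Of these, 2251 were higher in hypoxia (13.5%) and 2129 lower (12.8%). Without the 3 libraries of conflicting labels 3970 genes were called, and 4915 with treatment read from the tag. Most of the differences were small, since the median size of a called log2 fold change was 0.40 and the median standard error (SE) of all genes was 0.11. At least 2-fold changes numbered 435 (2.61%), with 270 higher (1.62%) and 165 lower (0.992%). The strongest changes lay mostly on the higher side. At least 4-fold changes were 43 higher against 8 lower, and at least 8-fold changes 14 against 3. For 2326 genes (14%) the libraries of the groups did not overlap, with every hypoxia library above every normoxia library in 1168 (7.02%) and below in 1158 (6.96%). Among 506 long intergenic non-coding RNAs tested, 68 were higher and 26 lower, while among 14680 protein-coding genes the counts were 2078 and 2037. For these non-coding RNAs the share called higher was near the 13.5% of all genes tested. Their share called lower was under the 12.8% of all genes.

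**Figure D1:**
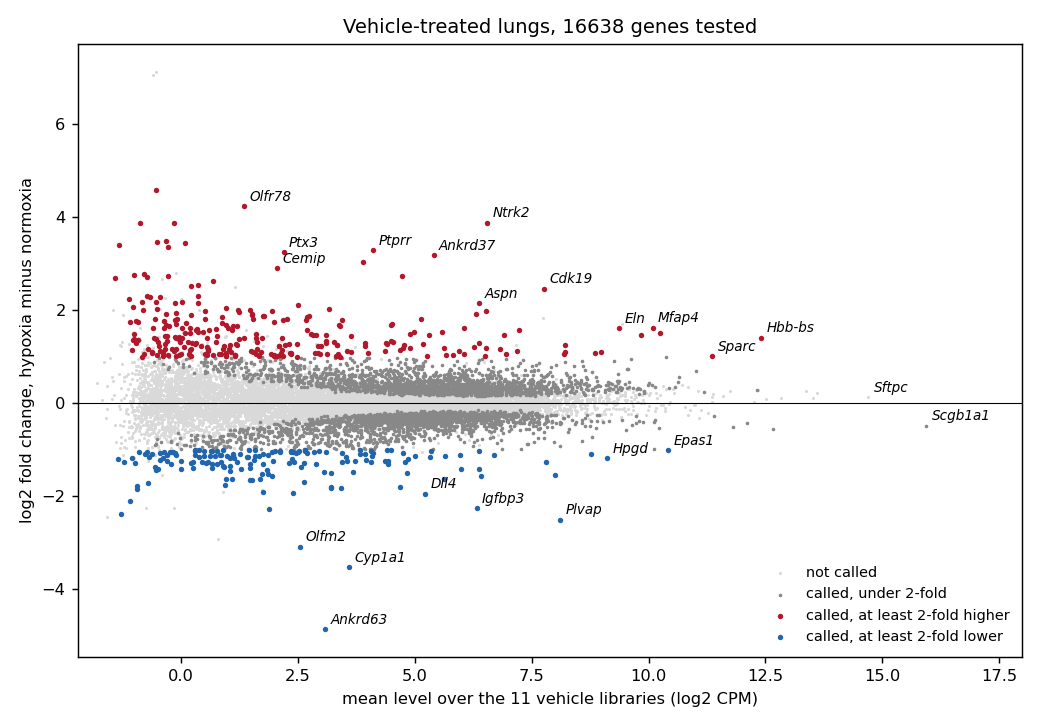
Log2 fold change of each of the 16638 genes tested (vertical axis, hypoxia minus normoxia) against its mean level over the 11 vehicle libraries (horizontal axis, log2 CPM). Red and blue points are the 270 and 165 genes called at least 2-fold higher and lower, and dark grey points are called genes under 2-fold. The falls of Epas1 and Plvap and the rises of Eln, Mfap4 and Hbb-bs stand at high levels, whereas Olfr78 and Ankrd63 stand at low ones.

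The largest rise among genes of at least 2 CPM was that of Olfr78 (ENSMUSG00000043366, chromosome 7, 102738511 to 102759471, GRCm38), an olfactory-type G protein-coupled receptor known from oxygen-sensing cells of the carotid body and from vascular smooth muscle. Its level was 0.206, 0.15, 0.357, 0.228 and 0.199 CPM in the normoxia libraries and 2.9 to 5.48 CPM (median 4.58) in hypoxia, a log2 fold change of 4.24 ± 0.33 (SE; adjusted p = 1.18e-09). The gene was near the limit of detection in every normoxia library and clearly counted in every hypoxia library. Together with the non-coding RNAs Gm35167 and AU015791 it was 1 of 3 genes under 0.5 CPM in all normoxia libraries and at 1 CPM or more in all hypoxia libraries, and no gene showed the reverse. Olfr558, a related receptor nearby on the same chromosome (102702215 to 102712064), was looked at after its values were seen. Olfr558 stood at 0, 0, 0, 0.0759 and 0.133 CPM in normoxia and at 0.691 to 1.78 CPM (median 1.21) in hypoxia (log2 fold change 4.59 ± 0.65, adjusted p = 1.32e-05), so both receptors were higher without overlap.

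Ntrk2 (ENSMUSG00000055254, chromosome 13) encodes TrkB, the receptor of brain-derived neurotrophic factor. Its level was 9.87, 10, 10, 11 and 13.9 CPM in the normoxia libraries and 134 to 187 CPM (median 158) in hypoxia. The lowest hypoxia library was far above the highest normoxia library, and the change was 14.8-fold (log2 fold change 3.89 ± 0.16, adjusted p = 2.78e-14). The ligand gene Bdnf rose from 13 to 18.5 CPM (log2 fold change 0.52) and the sister receptor Ntrk3 from 3.62 to 6.51 CPM (0.84), so 3 of the 8 neurotrophin genes tested were called, all higher. Ptprr, a tyrosine phosphatase that acts on mitogen-activated kinases, stood at 3.63, 2.25, 3.43, 2.81 and 2.52 CPM in normoxia and at 22.6 to 35.3 CPM (median 29.9) in hypoxia. That was a 9.86-fold rise (3.30 ± 0.15, adjusted p = 2.78e-14) with no overlap. Cdk19, a kinase of the Mediator complex, stood at 60.1, 58.4, 61.2, 60.6 and 73.6 CPM in normoxia and at 296 to 390 CPM (median 351) in hypoxia, 5.54-fold higher (2.47 ± 0.12, adjusted p = 8.37e-14). The groups did not overlap. Amd1, which lies nearby on chromosome 10 (40287458 to 40302186, against 40339564 to 40483818 for Cdk19), encodes the decarboxylase that feeds polyamine synthesis and was looked at after its values were seen. Amd1 went from 28.9, 33.1, 31, 31.3 and 32.1 CPM to 92.2 to 157 CPM (median 112), again without overlap (1.93 ± 0.23, adjusted p = 5.87e-06). Part of its reads could belong to a near-identical copy, which leaves the level of Amd1 itself uncertain. Further large rises were those of the zymogen granule glycoprotein Gp2 (3.05 ± 0.64), the sulfate transporter family member Slc26a10 (2.73 ± 0.21), the microvillar actin-bundling protein Vil1 (2.05 ± 0.34) and Lrrc3b (2.12 ± 0.24).

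The largest fall was that of Ankrd63 (ENSMUSG00000078137, chromosome 2, 118699103 to 118703963), an ankyrin-repeat protein of little-known function. It stood at 19.4, 15.8, 19.9, 16.6 and 17.2 CPM in normoxia and at 0.29 to 0.83 CPM (median 0.638) in hypoxia, 28.9-fold lower (log2 fold change -4.85 ± 0.20, adjusted p = 8.02e-15). Every hypoxia library had lost nearly all of its counts. Cyp1a1, the aryl hydrocarbon receptor's classical target enzyme, went from 29.1, 24.6, 19.4, 18.6 and 28.6 CPM to 1.25 to 2.88 CPM (median 2.07), a fall of 11.5-fold (-3.52 ± 0.66, adjusted p = 0.00077). The other strong fallers included the secreted olfactomedin Olfm2 (-3.08 ± 0.26), the phosphatase subunit Ppp2r2c (-2.27 ± 0.24), the atypical chemokine receptor Ackr4 (-1.82 ± 0.18), the endothelial nepmucin gene Cd300lg (-1.82 ± 0.14) and Hamp, the iron hormone hepcidin (-1.68 ± 0.24). In each of these 5 genes the libraries of the groups did not overlap.

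In absolute level, the matrix glycoprotein Sparc went from 1688 to 3412 CPM (1.02). Genes with large absolute falls were the nuclear non-coding RNA Malat1 (1528 to 768 CPM) and Hpgd, the enzyme that inactivates prostaglandins. Hpgd stood at 705, 855, 795, 814 and 825 CPM in normoxia and at 327 to 386 CPM (median 351) in hypoxia (log2 fold change -1.18 ± 0.10, adjusted p = 6.74e-09). Fmo1, a flavin monooxygenase looked at after its values were seen, stood at 354, 380, 435, 397 and 417 CPM in normoxia and at 121 to 154 CPM (median 138) in hypoxia (-1.53 ± 0.10, adjusted p = 8.93e-11). Both enzymes were lower in all 6 hypoxia libraries than in any normoxia library.

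**Figure D2:**
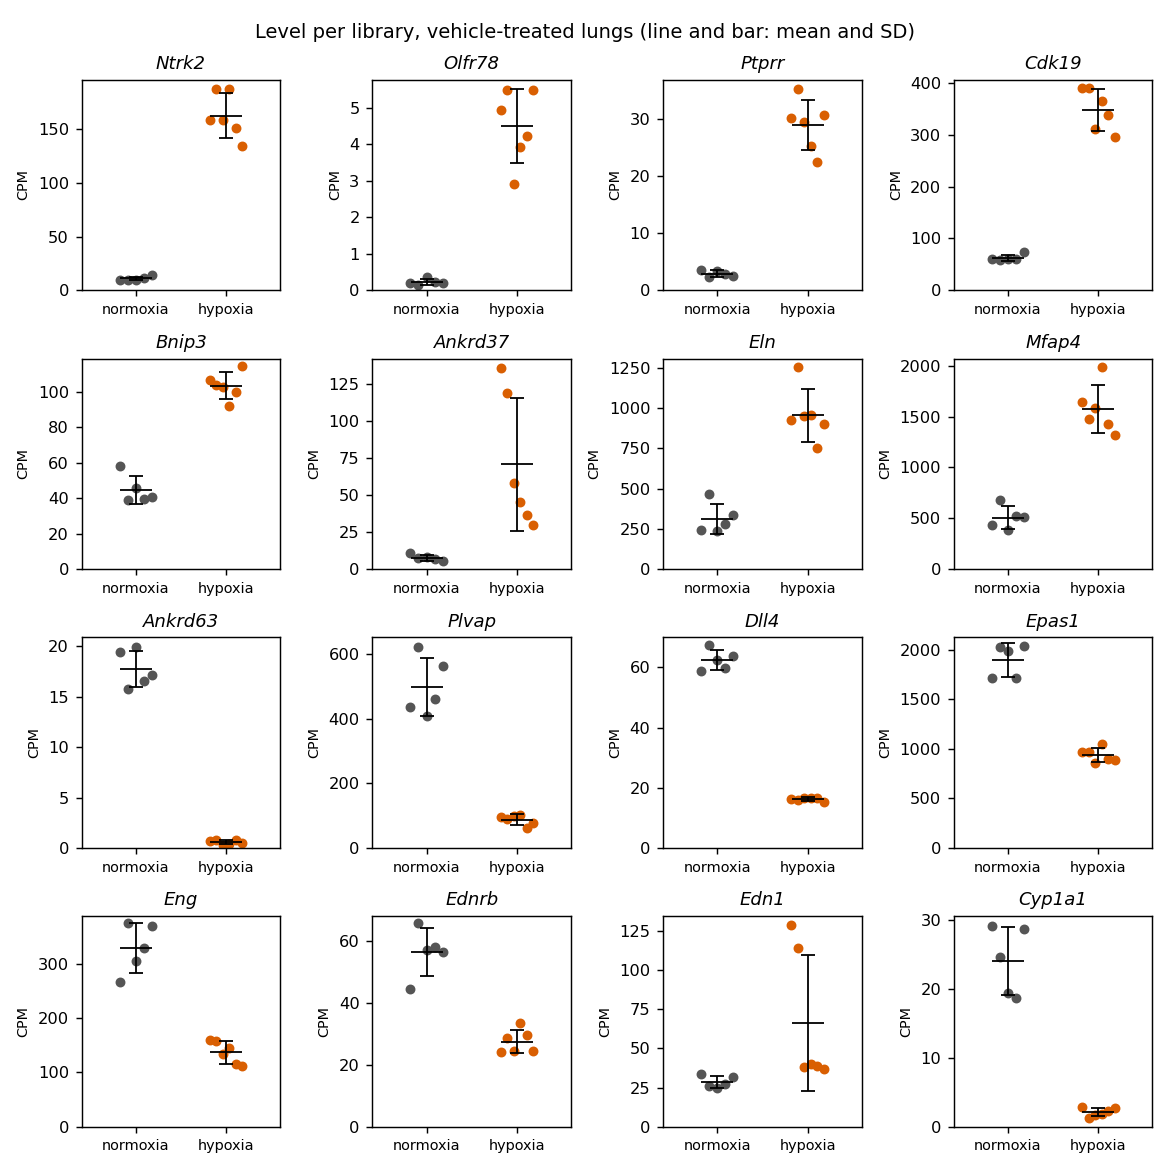
Level of 16 genes in each vehicle library, in CPM on linear axes that start at 0, with 5 normoxia libraries in grey and 6 hypoxia libraries in orange and with the mean and SD drawn in black. No panel shows an overlap of the groups. Ankrd37 and Edn1 vary widely among the hypoxia libraries (30.2 to 136 CPM and 36.7 to 129 CPM), whereas Dll4 varies little (15.1 to 16.7 CPM).

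Gene lists follow, and their counts stand beside the 13.5% called higher and 12.8% called lower among all genes tested. A count near those shares does not set a list apart. Oxygen-response genes were examined next, as the sensors themselves, their targets outside glycolysis, and glycolysis. Of 10 genes of the HIF system, Hif1a and Vhl (the ligase that marks HIF for degradation) rose and Epas1 fell. The share called in either direction was near the 26.3% of all genes tested. Epas1 (HIF-2 alpha, ENSMUSG00000024140, chromosome 17) stood at 1714, 2030, 1983, 1715 and 2041 CPM in normoxia and at 859 to 1053 CPM (median 935) in hypoxia. Every hypoxia library was below every normoxia library, and the mean was 2.02-fold lower (log2 fold change -1.01 ± 0.10, adjusted p = 1.06e-07). Hif1a stood at 33.9, 42.6, 34.6, 42.3 and 39.8 CPM in normoxia and at 39.3 to 55.7 CPM (median 51.6) in hypoxia, with overlap (0.38 ± 0.09, adjusted p = 0.00207). The oxygen-dependent hydroxylase genes Egln1 (74 and 74.4 CPM) and Hif1an (56.7 and 54.6 CPM) were not called.

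Among 26 tested HIF targets outside glycolysis, 13 rose and the other 13 were not called, and their median log2 fold change was 0.41 (-0.00 over all genes). Bnip3, a mitophagy receptor, stood at 58, 39, 45.6, 39.8 and 41 CPM in normoxia and at 92.3 to 115 CPM (median 103) in hypoxia (1.21 ± 0.10, adjusted p = 1.50e-09). Ankrd37, an ankyrin-repeat protein, stood at 11, 7.49, 8.21, 6.98 and 5.37 CPM in normoxia and at 30.2 to 136 CPM (median 52.1) in hypoxia (3.19 ± 0.69, adjusted p = 0.0024). All 6 hypoxia libraries were above normoxia for both genes, but Ankrd37 varied widely among them, with replicates 1 and 2 at the top. Smaller rises were seen in Fam162a, a mitochondrial protein of hypoxic cells (47.1 to 82.5 CPM, 0.81), the collagen cross-linker Loxl2 (16.1 to 31.7 CPM, 0.98), Bnip3l (172 to 237 CPM, 0.46) and Ndrg1 (45.1 to 66.1 CPM, 0.55). Several well-known targets were not called. Vegfa stood at 648, 648, 725, 697 and 558 CPM in normoxia and at 523 to 677 CPM (median 606) in hypoxia, with overlap (-0.11 ± 0.08, adjusted p = 0.337), and Adm (11.8 and 12.3 CPM), Car9 (1.65 and 1.45 CPM), Hmox1 (40.7 and 36.5 CPM) and Kdm3a (62.2 and 68.3 CPM) were also not called. Epo had no counts in any vehicle library.

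The 21 glycolysis genes split, with 5 called higher, 3 lower and a median of 0.01. Lactate dehydrogenase A (Ldha, 279 to 398 CPM, 0.51), the liver-type phosphofructokinase Pfkl (51.5 to 75.9 CPM, 0.56) and pyruvate dehydrogenase kinase Pdk1 (45.7 to 54.3 CPM, 0.25) rose. The glucose transporter Slc2a3 fell from 11.6 to 6.6 CPM (-0.81), and Slc2a1 was not called (38.9 and 39.7 CPM). With each library left out in turn, 3 to 6 glycolysis genes were called higher (3 without any one of normoxia replicates 2 to 5 or hypoxia replicates 2 to 4) and 1 to 4 lower (1 without the 3 libraries of conflicting labels, and 1 without any one of normoxia replicates 2 or 4 or hypoxia replicates 1 to 4).

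HIF binds DNA at sites with the core ACGTG or GCGTG. Promoters of 3 targets that rose are printed with those of Ntrk2, Dll4 and Ankrd63, 3 of the strongest responders outside that list, so that the core can be seen in its place. The sequences are the 250 bases before the RefSeq transcription start (GRCm38.p6), read 5′ to 3′ along the gene, and capitals mark every ACGTG or GCGTG on either strand (on the opposite strand these read CACGT and CACGC). In CACGTG the 2 strands' matches overlap, and both are counted. Bnip3 (chr7:138909507-138909756), Fam162a (chr16:36071562-36071811), Ankrd37 (chr8:45999851-46000100) and Ankrd63 (chr2:118703964-118704213) lie on the minus strand, Ntrk2 (chr13:58806319-58806568) and Dll4 (chr2:119325534-119325783) on the plus strand.
Bnip3: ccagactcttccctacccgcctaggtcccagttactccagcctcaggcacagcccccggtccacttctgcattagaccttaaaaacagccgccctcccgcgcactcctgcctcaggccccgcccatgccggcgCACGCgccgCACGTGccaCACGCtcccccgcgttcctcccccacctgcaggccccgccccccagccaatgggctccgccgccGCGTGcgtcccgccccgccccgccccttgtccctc
Fam162a: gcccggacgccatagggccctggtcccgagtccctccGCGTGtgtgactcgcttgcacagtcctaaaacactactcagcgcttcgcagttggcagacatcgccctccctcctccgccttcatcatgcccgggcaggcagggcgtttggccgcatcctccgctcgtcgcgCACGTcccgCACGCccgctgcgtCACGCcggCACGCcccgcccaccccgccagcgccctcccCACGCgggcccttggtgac
Ankrd37: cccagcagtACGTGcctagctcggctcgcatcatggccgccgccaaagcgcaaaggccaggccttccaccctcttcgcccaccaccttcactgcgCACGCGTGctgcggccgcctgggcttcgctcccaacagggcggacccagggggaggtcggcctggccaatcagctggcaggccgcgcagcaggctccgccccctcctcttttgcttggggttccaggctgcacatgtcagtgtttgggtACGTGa
Ntrk2: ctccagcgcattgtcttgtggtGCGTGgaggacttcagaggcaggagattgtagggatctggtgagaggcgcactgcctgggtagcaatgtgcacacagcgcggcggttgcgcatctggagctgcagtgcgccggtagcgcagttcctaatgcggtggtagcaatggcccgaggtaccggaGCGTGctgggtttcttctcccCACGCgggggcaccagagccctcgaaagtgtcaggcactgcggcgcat
Dll4: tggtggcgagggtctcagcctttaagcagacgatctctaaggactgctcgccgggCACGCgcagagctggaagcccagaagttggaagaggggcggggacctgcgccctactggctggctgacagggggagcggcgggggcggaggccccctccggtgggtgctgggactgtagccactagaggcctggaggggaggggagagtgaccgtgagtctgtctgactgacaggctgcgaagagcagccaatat
Ankrd63: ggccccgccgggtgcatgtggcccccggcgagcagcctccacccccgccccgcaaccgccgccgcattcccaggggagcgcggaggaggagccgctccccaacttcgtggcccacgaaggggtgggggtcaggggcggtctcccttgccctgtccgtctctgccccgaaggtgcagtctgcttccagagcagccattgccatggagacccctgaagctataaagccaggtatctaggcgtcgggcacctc
The core occurred 5 times in the Bnip3 window, 6 times in that of Fam162a, 4 times in that of Ankrd37, 3 times in that of Ntrk2, once in that of Dll4 and not at all in that of Ankrd63. Such short motifs are common. Over windows that also take in the 50 bases after the start, 43.8% of all 32851 promoters in the table held at least 1, as did 58.4% of the promoters of tested genes. The share was 84% for the HIF targets outside glycolysis (21 of 25 promoters, from 16 genes) and 78.8% for glycolysis (26 of 33). It was 42.3% for genes at least 2-fold higher (91 of 215 promoters) and 42.2% for those at least 2-fold lower (57 of 135). The sets also differed in the median number of CG dinucleotides per window. It was 26 in the HIF targets, 20 in glycolysis, 18 in tested genes, and 8 and 7 in the genes at least 2-fold higher and lower. All genes called higher, at a median of 19, had a share of 58.1%, near that of tested genes and under that of glycolysis. The part of CG content in the shares was not tested. A match is a description of the letters and not evidence of binding.

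Mural cells of the vessel wall are pericytes and smooth muscle cells. In bulk tissue, more or fewer cells of a type cannot be told apart from more or less RNA per cell, here and for all cell types that follow. Of 13 pericyte genes 8 rose (median 0.34). Higd1b, a small mitochondrial protein that marks lung pericytes, stood at 33, 32, 29.1, 30.2 and 30.7 CPM in normoxia and at 80.7 to 118 CPM (median 87.9) in hypoxia (1.62 ± 0.12, adjusted p = 1.22e-09). Rgs5, a brake on G protein signalling (15.6 to 45.2 CPM, 1.53), Cspg4, the NG2 proteoglycan (15.4 to 34 CPM, 1.14), and Notch3 (44.1 to 64.3 CPM, 0.54) rose too. The pericyte receptor Pdgfrb was not called (86.6 and 90.2 CPM). The list did not move as a block, since it ranged from -0.23 for the potassium channel subunit Abcc9 to 1.62.

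Of 19 smooth muscle contraction genes, 9 rose and 1 fell (median 0.37). Tagln (transgelin) stood at 294, 381, 295, 315 and 265 CPM in normoxia and at 588 to 886 CPM (median 637) in hypoxia (1.11 ± 0.11, adjusted p = 9.19e-08), with no overlap. Myosin light chain Myl9 (135 to 239 CPM, 0.83), caldesmon Cald1 (147 to 241 CPM, 0.72) and smooth muscle actin Acta2 (265 to 401 CPM, 0.60) rose, whereas the heavy chain Myh11 (114 and 113 CPM), Cnn1 (63.5 and 74 CPM) and Mylk (244 and 240 CPM) were not called. The faller, Actc1, is the cardiac actin and also belongs to the cardiac list. In that list 3 of 13 genes fell, with the atrial heavy chain Myh6 going from 328 to 186 CPM (-0.82), while the summed level of the list overlapped between the groups (1416 to 2170 CPM in normoxia, 1240 to 2046 CPM in hypoxia). Its part in the fall of Actc1 was not tested. Among 24 ion channels of pulmonary smooth muscle, 6 rose and 2 fell. The stretch-gated channel Piezo2 (23.9 to 38.2 CPM, 0.68) and the calcium-activated potassium channel subunit Kcnmb1 (6.97 to 10.8 CPM, 0.64) were among those that rose. With each library left out in turn the count of channels that rose ran from 4 to 9, and 1 fell without any one of normoxia replicates 2 or 5 or hypoxia replicates 1, 3 or 6, as without the 3 libraries of conflicting labels.

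The alveolar capillary bed holds general capillary cells, which divide and repair, and aerocytes, the broad cells of gas exchange. In each list of 12 genes 6 fell (medians -0.48 and -0.33). Plvap, which forms the diaphragms of endothelial caveolae and fenestrae (ENSMUSG00000034845, chromosome 8, 71497765 to 71511752), stood at 436, 624, 410, 460 and 564 CPM in normoxia and at 60.7 to 102 CPM (median 93.8) in hypoxia, 5.67-fold lower (-2.50 ± 0.17, adjusted p = 8.36e-10). Bmp6 stood at 96.8, 157, 115, 122 and 138 CPM in normoxia and at 35 to 58.9 CPM (median 48) in hypoxia (-1.41 ± 0.15, adjusted p = 4.78e-07). The stem cell factor receptor Kit (115 to 56.5 CPM, -1.03), the lectin-like receptor Cd93 (245 to 137 CPM, -0.83) and the apelin receptor Aplnr (67.6 to 42.7 CPM, -0.66) also fell. In the same list the chemokine Cxcl12 rose from 168 to 401 CPM (1.26) and Sema3c from 416 to 781 CPM (0.91), so the general capillary genes moved in both directions. Among aerocyte genes the endothelin B receptor Ednrb stood at 44.3, 65.8, 57, 58 and 56.5 CPM in normoxia and at 24.2 to 33.6 CPM (median 26.6) in hypoxia (-1.03 ± 0.12, adjusted p = 1.02e-06). Carbonic anhydrase Car4 (228 to 162 CPM, -0.49) and Cyp4b1 (568 to 343 CPM, -0.73) fell as well, whereas Prx (175 and 184 CPM) and Tbx2 (202 and 207 CPM) were not called.

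Arterial genes were divided, with 4 of 14 higher and 6 lower. The arterial transcription factor Sox17 (37.6 to 82.1 CPM, 1.13), the gap junction protein Gja4 (63.3 to 99.5 CPM, 0.65) and Vegfc rose, while Efnb2, the ligand that marks arteries in development (146 to 67.1 CPM, -1.12), Sema3g (160 to 81.8 CPM, -0.97), Cxcr4 (93.6 to 57.8 CPM, -0.70) and Hey1 (88.9 to 41 CPM, -1.12) fell. Gja5 was not called (51.7 and 51.5 CPM). Among 10 venous genes, Ackr3 (47.4 to 77.9 CPM, 0.72) and Car8 (152 to 213 CPM, 0.49) rose and the noradrenaline transporter Slc6a2 (44.2 to 15.7 CPM, -1.49) and Vcam1 (78 to 55.7 CPM, -0.48) fell.

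Of 8 tested lymphatic genes 6 rose, with a median of 0.97, and 6 were called in each fit that left out 1 library. The summed level of the list did not rise and overlapped between the groups (194 to 294 CPM in normoxia, 189 to 227 CPM in hypoxia). Prox1, the master regulator of lymphatic fate, stood at 2.19, 2.77, 3.36, 2.66 and 3.51 CPM in normoxia and at 4.31 to 8.78 CPM (median 5.23) in hypoxia (1.01 ± 0.19, adjusted p = 0.000349). Reln, a guidance protein of collecting lymphatics, stood at 3.36, 4.42, 3.79, 2.81 and 4.44 CPM in normoxia and at 9.06 to 12.1 CPM (median 10.5) in hypoxia (1.47 ± 0.15, adjusted p = 1.38e-07). Mmrn1, which platelets share, stood at 12.6, 20.8, 14.6, 11.9 and 17.6 CPM in normoxia and at 28.3 to 44.9 CPM (median 36.9) in hypoxia (1.26 ± 0.16, adjusted p = 3.35e-06). All 3 were higher without overlap. Lyve1, the hyaluronan receptor of initial lymphatics, went the other way, from 105, 178, 113, 124 and 149 CPM in normoxia to 32.6 to 56.8 CPM (median 47.2) in hypoxia (-1.57 ± 0.25, adjusted p = 0.000125). The receptor Flt4 was not called (25.4 and 24.7 CPM), and Ccl21a is listed at 0 throughout.

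Among 24 genes found in most endothelial cells, 7 rose and 9 fell. Emcn, an endothelial sialomucin, stood at 74.6, 82, 78.5, 79.5 and 75.4 CPM in normoxia and at 141 to 183 CPM (median 161) in hypoxia (1.06 ± 0.09, adjusted p = 5.23e-09). Egfl7 (610 to 809 CPM, 0.41) and Cavin2 (606 to 769 CPM, 0.34) also rose, and Sox18 (87.6 to 49.4 CPM, -0.82) and Clec14a (511 to 366 CPM, -0.48) fell. Cldn5 (494 and 462 CPM), Cav1 (918 and 922 CPM), Erg (118 and 112 CPM) and Pecam1 (556 and 466 CPM) were not called, and the summed level of the list overlapped between the groups (6665 to 8002 CPM in normoxia, 6087 to 7837 CPM in hypoxia). With each library left out in turn the count that fell ran from 6 to 9.

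**Figure D3:**
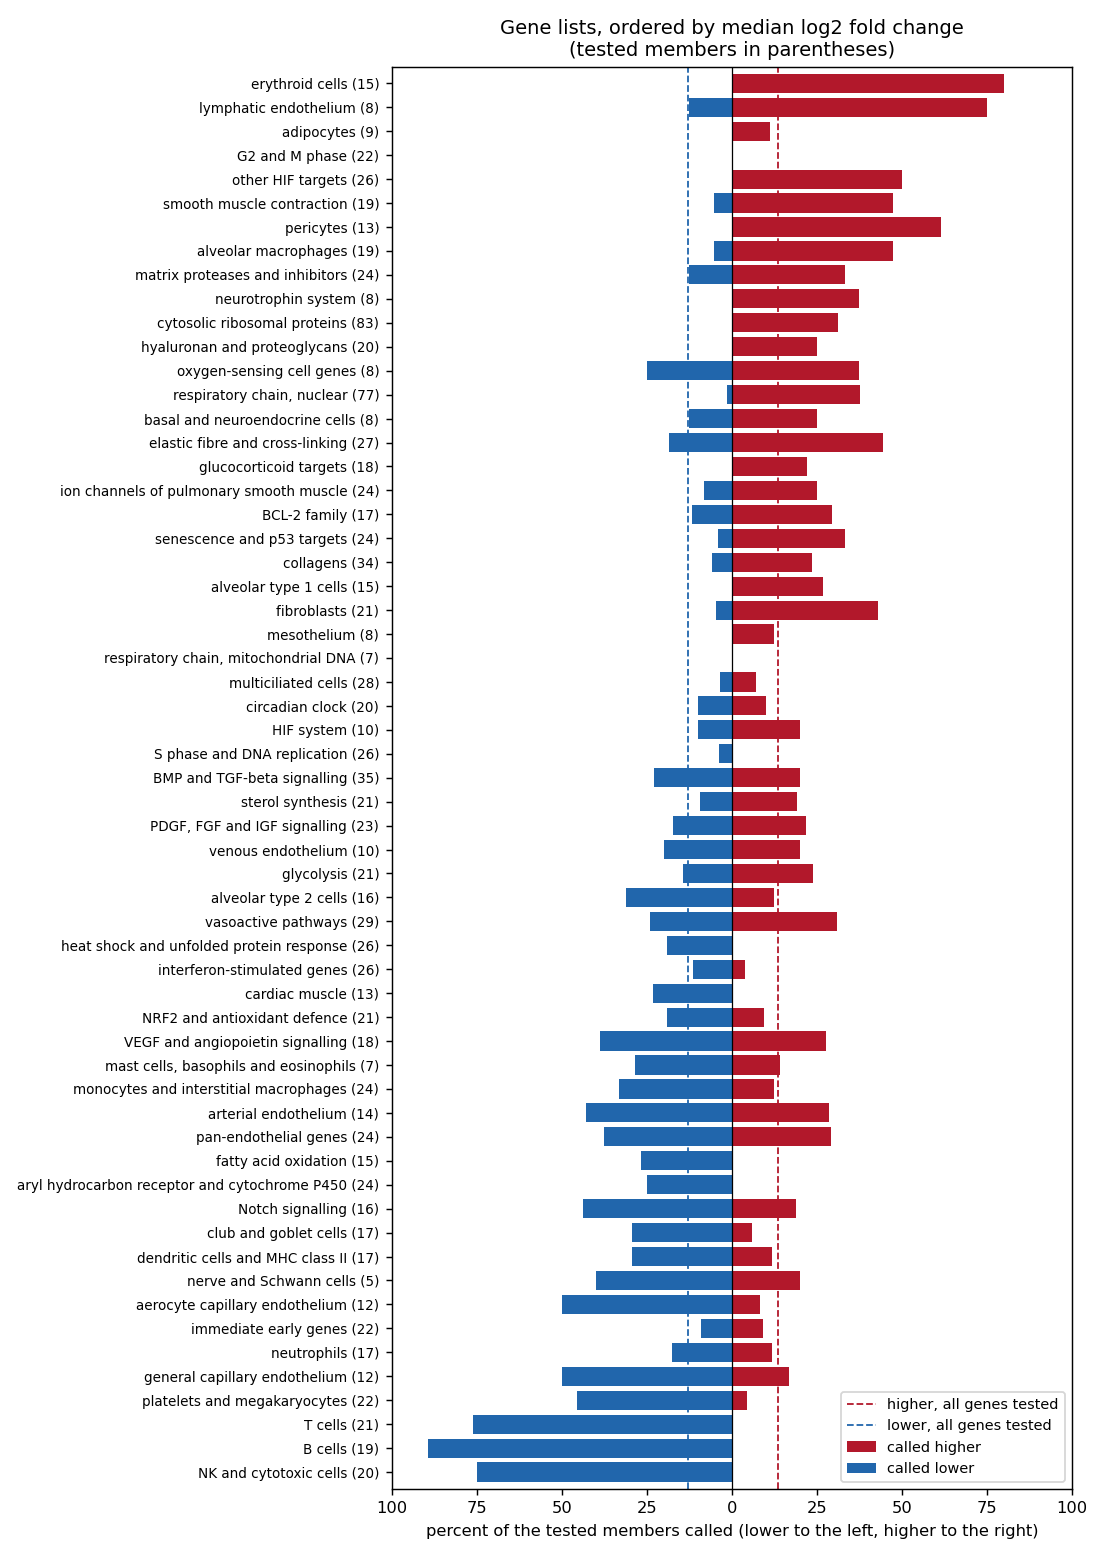
Share of the tested members of each of 59 gene lists that were called higher (red, to the right) or lower (blue, to the left), in percent, ordered by the list's median log2 fold change. Dashed lines mark the same shares over all genes tested (13.5% and 12.8%). Erythroid, lymphatic, adipocyte, G2 and M phase, HIF target, smooth muscle and pericyte lists lie at the higher end. NK, B and T cell, platelet and general capillary lists lie at the lower end.

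Ligands and receptors of angiogenesis moved in different directions. Of 18 genes of VEGF and angiopoietin signalling, 5 rose and 7 fell. Ligands accounted for the rises. Pgf, placental growth factor, stood at 3.36, 5.84, 4.5, 3.95 and 3.98 CPM in normoxia and at 11.2 to 12.7 CPM (median 12.1) in hypoxia (1.47 ± 0.13, adjusted p = 1.03e-08). Vegfc, the lymphangiogenic ligand, stood at 10.7, 12.4, 12.1, 10.6 and 12.4 CPM in normoxia and at 25 to 34.3 CPM (median 27.8) in hypoxia (1.30 ± 0.13, adjusted p = 7.88e-08). Vegfd (33.4 to 59.3 CPM, 0.83) and Angpt1 (74.8 to 94.7 CPM, 0.34) rose too. Receptors and the angiopoietin antagonist were among the fallers. They were the VEGF receptor Kdr (272 to 192 CPM, -0.50), the angiopoietin receptor Tek (279 to 166 CPM, -0.74), Angpt2 (36.9 to 29.8 CPM, -0.31) and Esm1, a proteoglycan of sprouting tip cells (41.9 to 12 CPM, -1.80). The receptors Flt1 (147 and 129 CPM) and Flt4 were not called.

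In the Notch pathway 7 of 16 genes fell and 3 rose (median -0.21). Dll4 (ENSMUSG00000027314, chromosome 2), the endothelial ligand that restrains sprouting, stood at 58.6, 67.3, 62.3, 59.9 and 63.6 CPM in normoxia and at 15.1 to 16.7 CPM (median 16.4) in hypoxia, 3.84-fold lower (-1.94 ± 0.10, adjusted p = 8.37e-14). The hypoxia libraries lay close together. The receptors Notch1 (62 to 47.6 CPM, -0.38), Notch2 (87.4 to 65.4 CPM, -0.42) and Notch4 (60.8 to 44.3 CPM, -0.46) fell with the target Hey1. Jag2 moved against them, from 24.2, 25.2, 22.4, 25.3 and 25.4 CPM to 33.5 to 44.2 CPM (median 42.5), a log2 fold change of 0.74 ± 0.10 (adjusted p = 6.85e-06). Jag1 (56.1 and 54.9 CPM), Rbpj (30 and 27.1 CPM) and Hes1 (91.3 and 75.1 CPM) were not called.

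BMP and TGF-beta signalling was followed because loss of BMPR2, ENG or ACVRL1 function underlies heritable pulmonary vascular disease. Of 35 genes tested, 7 rose and 8 fell (median 0.03). Eng (endoglin, an endothelial co-receptor) stood at 266, 374, 305, 328 and 370 CPM in normoxia and at 111 to 160 CPM (median 140) in hypoxia (-1.26 ± 0.12, adjusted p = 7.11e-08). Bmpr2 stood at 225, 278, 285, 264 and 284 CPM in normoxia and at 152 to 198 CPM (median 168) in hypoxia (-0.62 ± 0.12, adjusted p = 0.000321). Neither gene's groups overlapped. The receptor Acvrl1 (474 to 340 CPM, -0.48) and the inhibitory Smad6 (71.5 to 32.6 CPM, -1.13) fell, but the target genes Id1 (71.7 and 77.4 CPM) and Id3 (182 and 171 CPM) were not called. The antagonists did not all move one way. Follistatin (Fst) stood at 3.15, 2.4, 4.29, 3.72 and 3.12 CPM in normoxia and at 10.5 to 14.7 CPM (median 14) in hypoxia (2.02 ± 0.21, adjusted p = 1.69e-07), and gremlin Grem1 rose from 0.979 to 3.11 CPM (1.67). The ligand Bmp2 rose (5.92 to 11.1 CPM, 0.91) where Bmp6 fell.

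Of 29 tested vasoactive genes, 9 rose and 7 fell. Edn1, the gene of the vasoconstrictor endothelin-1, stood at 33.4, 26, 25, 27.2 and 31.7 CPM in normoxia and at 36.7 to 129 CPM (median 39.5) in hypoxia (1.20 ± 0.34, adjusted p = 0.0139). Hypoxia vehicle replicates 1 and 2 were far above the other 4, which lay just over the normoxia range. The log2 fold change was 0.90 without replicate 1, whose treatment tag conflicts with its title (adjusted p = 0.0343), and 1.21 in a fit of the 11 vehicle libraries alone, where it did not pass (adjusted p = 0.058). The endothelin-converting enzyme Ece1 fell (224 to 122 CPM, -0.87) with Ednrb, and Ednra was not called (47.5 and 43.6 CPM). For adrenomedullin and the related peptides, receptor partners changed in opposite directions. Ramp2 stood at 338, 404, 343, 367 and 396 CPM in normoxia and at 169 to 224 CPM (median 198) in hypoxia (-0.91 ± 0.10, adjusted p = 5.81e-07), and Ramp3 at 6.3, 7.49, 4.86, 4.25 and 5.63 CPM in normoxia and at 11.7 to 16.4 CPM (median 13.6) in hypoxia (1.25 ± 0.16, adjusted p = 2.73e-06). Both separated the groups without overlap. Npr3, the clearance receptor of natriuretic peptides, stood at 75.2, 79.6, 62.1, 69.4 and 104 CPM in normoxia and at 19.7 to 32 CPM (median 24.7) in hypoxia (-1.63 ± 0.20, adjusted p = 8.11e-06), and the signalling receptor Npr1 fell from 127 to 84.2 CPM (-0.59). Endothelial nitric oxide synthase Nos3 (14.8 to 23.5 CPM, 0.67), inducible Nos2 (4.08 to 7.11 CPM, 0.80) and prostacyclin synthase Ptgis (71.4 to 93.6 CPM, 0.39) rose, whereas the inducible cyclooxygenase Ptgs2 fell (31.5 to 18.4 CPM, -0.77).

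Among 23 PDGF, FGF and IGF genes 5 rose and 4 fell, and the IGF-binding proteins were widely spread. Igfbp3 stood at 131, 137, 145, 143 and 147 CPM in normoxia and at 16.5 to 42.6 CPM (median 30) in hypoxia, 4.79-fold lower (-2.26 ± 0.16, adjusted p = 2.31e-09). In contrast Igfbp2, which alveolar type 1 cells also make, rose from 289 to 613 CPM (1.09), and Igfbp4 fell from 186 to 126 CPM (-0.57). The smooth muscle mitogen gene Pdgfd rose (21.8 to 36.7 CPM, 0.76), and the receptors Pdgfra (151 and 157 CPM) and Fgfr1 (48.9 and 46.2 CPM) were not called.

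**Figure D4:**
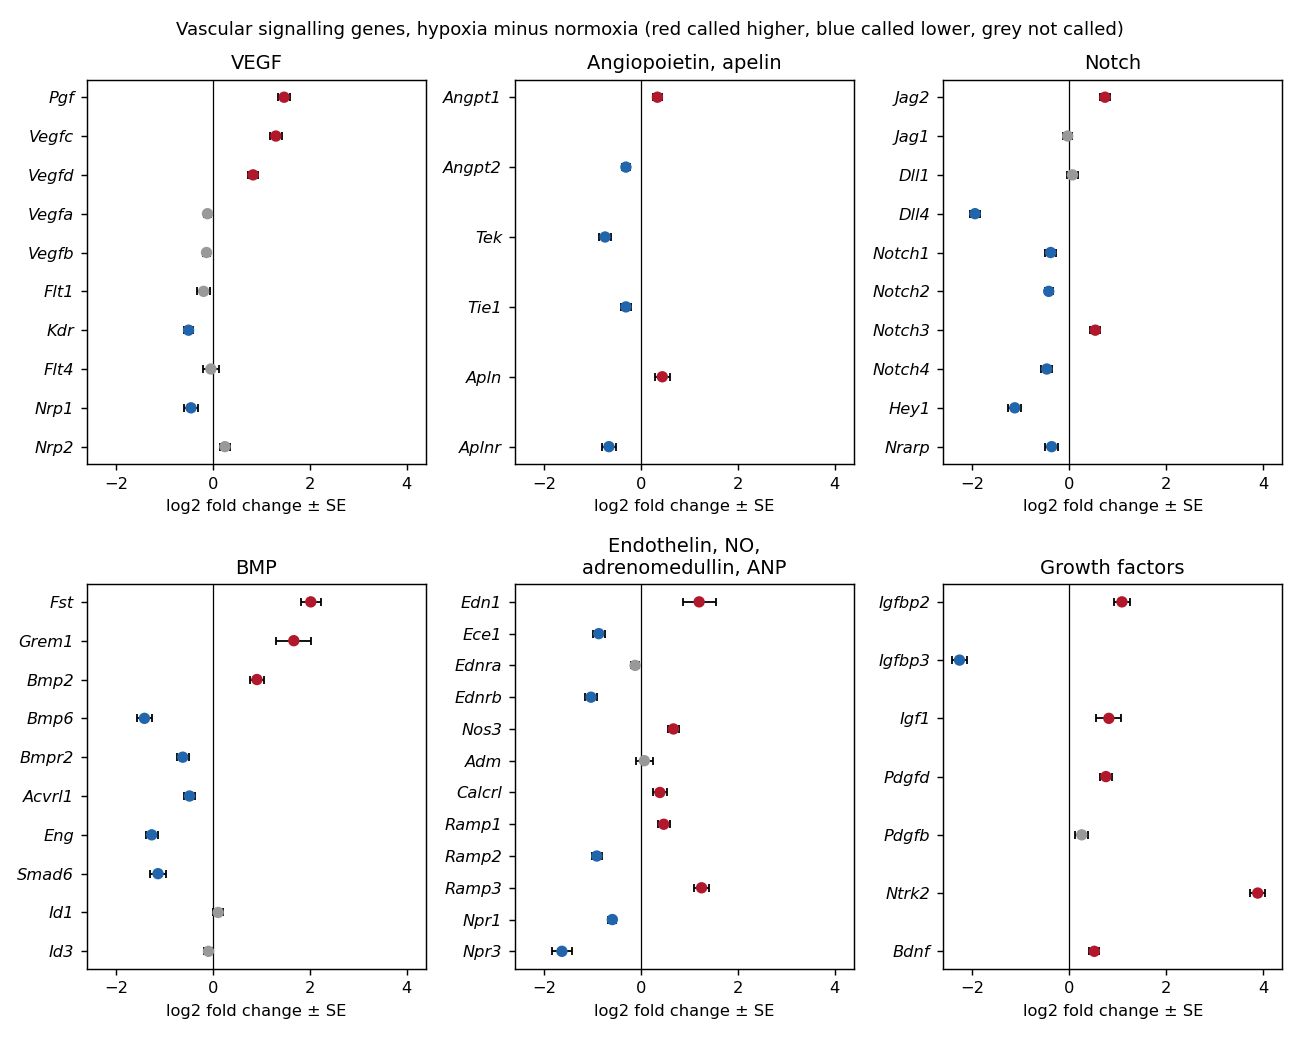
Log2 fold change (hypoxia minus normoxia, horizontal axis) with its SE for genes of 6 vascular pathways. Red points were called higher, blue points lower and grey points not called. Pgf, Vegfc and Vegfd lie to the right and the receptors Kdr, Nrp1 and Tek to the left, Dll4 and Jag2 lie on opposite sides, as do Ramp2 and Ramp3.

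Matrix genes were examined by class. Of 27 genes of elastic fibres and cross-linking, 12 rose and 5 fell (median 0.19). Elastin (Eln) stood at 242, 467, 239, 280 and 334 CPM in normoxia and at 751 to 1257 CPM (median 940) in hypoxia (1.62 ± 0.24, adjusted p = 5.06e-05). Mfap4, a microfibril-associated protein, stood at 434, 680, 385, 525 and 513 CPM in normoxia and at 1322 to 1991 CPM (median 1529) in hypoxia (1.63 ± 0.14, adjusted p = 5.96e-09). They were 3.07-fold and 3.1-fold higher, without overlap. The cross-linking oxidase Lox (46.5 to 114 CPM, 1.30), fibrillin Fbn1 (69.7 to 116 CPM, 0.73), fibulin Fbln5 (119 to 172 CPM, 0.54) and the latent TGF-beta binding protein Ltbp2 (56.4 to 103 CPM, 0.87) rose, while Ltbp4 (292 to 206 CPM, -0.50), Fbln1 (60.2 to 41.7 CPM, -0.53) and Emilin2 (14.3 to 5.04 CPM, -1.50) fell. The count of fallers was 3 without any one of normoxia replicates 2 or 5 or hypoxia replicates 1, 4, 5 or 6, and 3 without the 3 libraries of conflicting labels.

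Of 34 tested collagens 8 rose and 2 fell. Col8a1, a short-chain collagen of remodelled vessels, rose most (10.2 to 32.9 CPM, 1.69), and the basement membrane chains Col4a1 (297 to 489 CPM, 0.72) and Col4a5 (63.1 to 99.5 CPM, 0.66), Col15a1 (7.65 to 12.4 CPM, 0.70) and Col18a1 (29.5 to 41.3 CPM, 0.49) rose. The fibrillar genes Col1a1 (126 and 146 CPM), Col1a2 (222 and 261 CPM) and Col3a1 (483 and 604 CPM) were not called. The 2 fallers, Col23a1 and Col8a2, lost their calls without any one of normoxia replicates 2 or 5 or hypoxia replicates 1 or 5, and without the 3 libraries of conflicting labels or any filter on low counts. Col23a1 also lost it without normoxia replicate 4 or hypoxia replicate 3.

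Among 20 genes of hyaluronan and small proteoglycans, 5 rose, and 4 of these are described here. Ptx3, a pentraxin that cross-links hyaluronan, stood at 0.754, 1.05, 0.5, 1.14 and 0.597 CPM in normoxia and at 5.74 to 9.11 CPM (median 7.89) in hypoxia (3.25 ± 0.24, adjusted p = 7.05e-10). Cemip, which binds and breaks down hyaluronan, stood at 0.685, 1.42, 1.29, 0.835 and 0.331 CPM in normoxia and at 4.42 to 8.52 CPM (median 7.11) in hypoxia (2.91 ± 0.25, adjusted p = 6.74e-09). Groups were fully separate for both. Asporin (Aspn, 28.9 to 128 CPM, 2.15) and the hyaluronan link protein Hapln1 (0.872 to 3.52 CPM, 2.01) completed these, whereas decorin (Dcn, 130 and 126 CPM), lumican (Lum, 4.91 and 4.99 CPM) and Cd44 (109 and 94.2 CPM) were not called. Of 24 matrix proteases and inhibitors 8 rose and 3 fell (5 without normoxia replicate 2), including the gelatinase Mmp9, which neutrophils carry (17.1 to 7.29 CPM, -1.23). The share of the 24 that fell was near the 12.8% of all genes tested. Of 21 fibroblast genes 9 rose, among them tenascin Tnc (12.3 to 31 CPM, 1.34), fibronectin Fn1 (130 to 225 CPM, 0.80) and Dpt (257 to 360 CPM, 0.49), and the alveolar fibroblast gene Hhip fell (19.8 to 9.32 CPM, -1.09). Pdgfra and Inmt (2494 and 2748 CPM) were not called.

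Of 16 alveolar type 2 genes 2 rose and 5 fell (median 0.01). The share that rose was near the 13.5% of all genes tested. Sftpc stood at 30672, 24610, 23042, 23072 and 25101 CPM in normoxia and at 22554 to 32951 CPM (median 27679) in hypoxia, with wide overlap (0.13 ± 0.11, adjusted p = 0.44). The collectin gene Sftpa1 fell from 4278 to 3009 CPM (-0.51) and the lipid transporter Abca3 from 257 to 196 CPM (-0.39). The count of fallers was 3 without any one of normoxia replicates 2 or 5 or hypoxia replicate 5, and 1 rose without any one of normoxia replicates 2 to 5 or hypoxia replicates 1, 2, 3, 5 or 6, as without the 3 libraries of conflicting labels. Of 15 alveolar type 1 genes 4 rose, led by Igfbp2 and podoplanin (Pdpn, 25.2 to 38.5 CPM, 0.61), genes that the IGF and lymphatic lists share, and the type 1 marker Ager was not called (2073 and 2034 CPM). Without normoxia replicate 3 the count was 2.

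Club cells line the small airways. Scgb1a1, the main secretoglobin of club cells, stood at 92221, 69700, 70167, 63802 and 76157 CPM in normoxia and at 41331 to 69449 CPM (median 51734) in hypoxia, with overlap (-0.48 ± 0.16, adjusted p = 0.0303). It did not pass without any one of normoxia replicates 1 or 5 or hypoxia replicates 1, 3 or 5. Cyp2f2, a club cell cytochrome P450, stood at 8575, 7662, 7461, 7059 and 8140 CPM in normoxia and at 4103 to 6397 CPM (median 5450) in hypoxia, with no overlap (-0.55 ± 0.15, adjusted p = 0.011). Of 17 club and goblet genes 5 fell and 1 rose, with log2 fold changes from -0.55 to 1.83 in the list. Without the 3 libraries of conflicting labels 3 fell and 0 rose. The count that rose was also 0 without any one of normoxia replicates 2 to 5 or hypoxia replicate 5. Among 24 aryl hydrocarbon receptor and cytochrome P450 genes 6 fell, including Cyp1a1, Cyp2f2 and Cyp2d22 (46.5 to 29.9 CPM, -0.64). In the fit of the 11 vehicle libraries alone 10 genes of that list fell. The receptor gene Ahr was not called (61.4 and 60.1 CPM). Of 28 multiciliated cell genes 2 rose and 1 fell, and the master regulator Foxj1 was not called (168 and 166 CPM). The share that rose was under the 13.5% of all genes tested. The count that rose was 4 without hypoxia replicate 1 and without the 3 libraries of conflicting labels, 1 without hypoxia replicate 2, and 0 without any one of normoxia replicates 2 to 5 or hypoxia replicates 3 to 6. The count that fell was 0 without normoxia replicate 2 or 3 and without the 3 libraries of conflicting labels. Krt5, the keratin of basal cells, stood at 0.137, 0.0749, 0.214, 0 and 0.0663 CPM in normoxia and at 0.0712 to 4.42 CPM (median 1.19) in hypoxia. Its groups overlapped and its error was large (3.88 ± 1.19, adjusted p = 0.0207), and it lost the call without normoxia replicates 4 or 5. It also lost the call with limma-voom (2.72, adjusted p = 0.0893) and in edgeR with no filter on low counts (3.87, adjusted p = 0.0542).

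Genes of tissues that can be carried along in dissection overlapped between the groups in summed level. The summed level of 8 mesothelial genes ran from 335 to 608 CPM in normoxia and from 392 to 840 CPM in hypoxia, and that of 9 adipocyte genes from 84.9 to 402 CPM and from 139 to 464 CPM. The median log2 fold change was 0.13 for the mesothelial list and 0.50 for the adipocyte list (-0.00 over all genes). In the adipocyte list 1 gene, Ucp1, was called higher. It lost the call with limma-voom (2.63, adjusted p = 0.052) and without any one of normoxia replicates 2 to 5. Carry-over of these tissues was not tested.

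Red cell and blood genes changed more. Of 15 tested erythroid genes 12 rose (median 1.13), every one without overlap. Among all genes tested 13.5% were called higher, and 7.02% had every hypoxia library above every normoxia library. Hbb-bs, adult beta globin, stood at 3751, 2314, 2958, 2669 and 2653 CPM in normoxia and at 6292 to 8842 CPM (median 7428) in hypoxia (1.41 ± 0.18, adjusted p = 2.79e-06). Near-identical globin copies share reads, so single globin values are uncertain, but the haemoglobin genes together rose from 0.473% ± 0.0601 (SD, n = 5) to 1.15% ± 0.13 (SD, n = 6) of all counts. The haem synthesis enzyme Alas2 (88.5 to 194 CPM, 1.13) and the anion exchanger Slc4a1 (2.72 to 9.93 CPM, 1.87) rose with them. Leaving out the haemoglobin genes gave 4382 called genes. Platelet and megakaryocyte genes leaned lower, with 10 of 22 lower and 1 higher (median -0.58). The integrin Itga2b (22.9 to 11.7 CPM, -0.98), the glycoprotein Gp5 (4.52 to 2.05 CPM, -1.13) and platelet tubulin Tubb1 (13.1 to 6.78 CPM, -0.95) fell, and Pf4 was not called (25.4 and 23.1 CPM). The riser is Mmrn1, also in the lymphatic list.

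Lymphocyte genes were lower almost throughout. Of 19 B cell genes 17 fell (median -0.84), and 17 were called in every fit that left a library out. Cd79a, a chain of the B cell receptor complex, stood at 52.4, 43.5, 59.1, 76.9 and 54.1 CPM in normoxia and at 19.7 to 29.1 CPM (median 27.1) in hypoxia (-1.16 ± 0.12, adjusted p = 1.41e-07). Immunoglobulin segments took 0.0755% ± 0.0164 (SD, n = 5) of counts in normoxia and 0.0415% ± 0.00431 (SD, n = 6) in hypoxia, without overlap. Of 21 T cell genes 16 fell (median -0.64). Cd3e stood at 8.36, 5.32, 7.64, 9.86 and 8.48 CPM in normoxia and at 2.63 to 5.22 CPM (median 3.61) in hypoxia (-1.05 ± 0.18, adjusted p = 0.000136), whereas Cd3d was not called (14.1 and 12.5 CPM). Of 20 NK and cytotoxic genes 15 fell (median -0.85). Il2rb, a receptor chain for interleukins 2 and 15, stood at 11.2, 13.9, 12.9, 20.9 and 20.5 CPM in normoxia and at 5.29 to 8.26 CPM (median 6.34) in hypoxia (-1.27 ± 0.15, adjusted p = 1.25e-06). The sphingosine phosphate receptor S1pr5 (4.55 to 1.45 CPM, -1.65) and the transcription factor Eomes (3.08 to 1.21 CPM, -1.34) fell further. Levels of these lymphocyte genes were low, and normoxia replicate 4 often had the highest value among them (Cd79a, Cd3e and Il2rb).

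Myeloid genes were mixed. Of 19 alveolar macrophage genes 9 rose and 1 fell (median 0.32). Chil3, a chitinase-like protein they secrete, stood at 210, 183, 113, 224 and 173 CPM in normoxia and at 304 to 483 CPM (median 385) in hypoxia (1.11 ± 0.17, adjusted p = 5.45e-05). The protease Ctsk (32.1 to 66.3 CPM, 1.04), the lectin Siglecf (6.15 to 10.3 CPM, 0.75) and the mannose receptor Mrc1 (47.8 to 74.7 CPM, 0.64) rose too, but Marco (8.41 and 8.28 CPM) and Pparg (10.7 and 10.4 CPM) were not called. The list's faller, Car4, is also an aerocyte gene. Monocyte and interstitial macrophage genes leaned lower (8 of 24 lower, 3 higher, or 5 higher without normoxia replicate 2), with falls of Csf1r (78 to 53.4 CPM, -0.55) and Itgal (35.6 to 18.7 CPM, -0.93). Of 17 dendritic cell and MHC class II genes 5 fell and 2 rose. The fallers included Clec9a (26.6 to 15.7 CPM, -0.76) and Ccr7 (24.3 to 14.3 CPM, -0.77). The class II genes H2-Aa (568 and 577 CPM) and H2-Ab1 (512 and 513 CPM) were not called. Of 17 neutrophil genes 3 fell, 2 rose and 12 were not called. The share called in either direction was near the 26.3% of all genes tested. Csf3r, the receptor of granulocyte colony-stimulating factor, stood at 27.1, 23.7, 35.7, 44.2 and 28.2 CPM in normoxia and at 9.27 to 20.5 CPM (median 11.9) in hypoxia (-1.31 ± 0.23, adjusted p = 0.000247), and Cxcr2 at 6.92, 8.47, 7.43, 14.1 and 8.55 CPM in normoxia and at 3.12 to 4.16 CPM (median 3.84) in hypoxia (-1.28 ± 0.19, adjusted p = 2.91e-05). S100a8 (83.8 and 53.3 CPM) and S100a9 (125 and 77 CPM) were not called, and lactoferrin (Ltf), which airway glands also make, rose from 35.5 to 140 CPM (1.98). The third faller was Mmp9, and the other riser the histamine-forming enzyme Hdc (143 to 204 CPM, 0.51). The count of fallers was 6 without hypoxia replicate 1, 5 without normoxia replicate 2 and 7 without the 3 libraries of conflicting labels. It was 6 in the fit of the 11 vehicle libraries alone.

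The counts of nuclear respiratory chain and ribosomal protein genes called depended on single libraries. Of 77 nuclear respiratory chain genes 29 rose and 1 fell (median 0.22), and 11 to 47 rose when libraries were left out singly. The count was 47 without normoxia replicate 1, 13 without normoxia replicate 2, 14 without normoxia replicate 4, 11 without normoxia replicate 5, 18 without hypoxia replicate 5, 11 without hypoxia replicate 6 and 19 without the 3 libraries of conflicting labels. Of 83 cytosolic ribosomal protein genes 26 rose (median 0.25), and 7 to 48 did so with each library left out. It was 48 without normoxia replicate 1, 7, 15, 10 and 9 without normoxia replicates 2, 3, 4 and 5, and 17, 12 and 9 without hypoxia replicates 1, 5 and 6, and 11 without the 3 libraries of conflicting labels. The summed levels of both lists overlapped between the groups. Of 15 fatty acid oxidation genes 4 fell, and among 21 sterol synthesis genes 4 rose and 2 fell.

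Proliferation genes did not pass. For 22 genes of G2 and M phase the median was 0.46, yet none was called by edgeR, DESeq2 or limma-voom and none had an unadjusted p under 0.05 in the edgeR fit. In a fit of only the 11 vehicle libraries, where the spread of the ABT-263 libraries does not enter, 9 were called higher. Mki67 went from 10.2 to 13.5 CPM and Cenpf from 2.38 to 4.38 CPM. Of 26 S phase genes 1, Mcm4, was called, and it was lower (27.4 to 21.1 CPM, -0.37), whereas in the fit of the 11 vehicle libraries alone 4 others were called higher. Among 24 senescence and p53 target genes 8 rose and 1 fell (0 fell without any one of normoxia replicates 4 or 5 or hypoxia replicates 3, 5 or 6). In the fit of the 11 vehicle libraries alone 2 of them fell. Ccng1, a cyclin induced by p53, stood at 135, 125, 128, 112 and 131 CPM in normoxia and at 158 to 194 CPM (median 173) in hypoxia (0.45 ± 0.09, adjusted p = 0.000871). The inhibitor Cdkn2c (24.6 to 38.3 CPM, 0.64) and Cdkn1c (61.4 to 82.2 CPM, 0.42) rose, but Cdkn1a (50.8 and 58.1 CPM) and Cdkn2b (32.7 and 35 CPM) were not called and Cdkn2a was below the filter. Of the BCL-2 genes that ABT-263 targets, Bcl2l1 (89.9 and 101 CPM) and Bcl2l2 (93.2 and 111 CPM) were not called. Bcl2l2 was called higher by edgeR in the fit of the 11 vehicle libraries alone (0.26, adjusted p = 0.0252). It was also called without hypoxia ABT-263 replicate 3 (0.25, adjusted p = 0.025). Bcl2 rose from 18.3 to 21.7 CPM (0.25), and it lost the call in 7 of the 11 fits that left out a vehicle library. The pro-apoptotic Bax (62.7 to 78.8 CPM, 0.33) and Bad (44.4 to 62 CPM, 0.48) rose and Bcl2l11, which encodes BIM, fell (26.9 to 19.2 CPM, -0.49).

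Of the 20 circadian clock genes, 16 were not called, and the share called was under the 26.3% of all genes tested. Nr1d2 went from 76.7 to 122 CPM (0.67) and Npas2 from 15 to 8.59 CPM (-0.79). Per1 (32.2 and 36.5 CPM) and Nr1d1 (68.4 and 61.6 CPM) were not called. Of 18 glucocorticoid targets 4 rose, including Sgk1 (97.9 to 166 CPM, 0.76), while Fkbp5 (9.22 and 9.01 CPM) and Tsc22d3 (187 and 201 CPM) were not called. Immediate early genes had a median of -0.35, with Egr1 (42.1 and 21.8 CPM) and Fos (33.9 and 26.5 CPM) not called. Ctgf, a target of mechanical and TGF-beta signals, rose from 202 to 372 CPM (0.88). Of 26 interferon-stimulated genes 3 fell (5 without hypoxia replicate 2) and 1 rose (2 without hypoxia replicate 6). The share of these genes that fell was near the 12.8% called lower among all genes tested. Of 26 heat shock and unfolded protein genes 5 fell. This count became 3 without any one of normoxia replicates 2, 4 or 5 or hypoxia replicates 1 or 5. With each library left out in turn it ran from 3 to 7, and in the fit of the 11 vehicle libraries alone it was 9. Antioxidant genes of the NRF2 list were split, with extracellular glutathione peroxidase Gpx3 rising from 1282 to 1900 CPM (0.57) and 4 of 21 lower. No member of that list was called lower without normoxia replicate 5 or without the 3 libraries of conflicting labels, 1 was without hypoxia replicate 1, and 2 were with no filter on low counts.

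The same contrast in ABT-263-treated lungs shares no library with the vehicle contrast, although both enter one fit. There 6525 genes were called (39.2%). Of the 4380 genes called with vehicle, 4263 (97.3%) had the same sign with ABT-263 and 3407 were called in both, which is 77.8% of the vehicle calls and 52.2% of the ABT-263 calls. Signs agreed in 3401 of these and were opposite in 6. Among the 435 genes at least 2-fold changed with vehicle, 417 had the same sign with ABT-263, 346 were also called there with that sign and 89 were not. Their median change was 1.29 with vehicle and 1.15 in the same direction with ABT-263, and Pearson's r across the genes was 0.89, a description over genes chosen for their size in one contrast. Among large changes, values were further apart for Cyp1a1 (-3.52 and -0.94), Krt5 (3.88 and 0.62), Olfr558 (4.59 and 2.96) and Ankrd37 (3.19 and 2.26). They were close for Ntrk2 (3.89 and 4.17), Ankrd63 (-4.85 and -4.88), Plvap (-2.50 and -2.29), Eln (1.62 and 1.97) and Epas1 (-1.01 and -1.09). List medians were also near each other for erythroid cells (1.13 and 1.30), lymphatic endothelium (0.97 and 1.17), B cells (-0.84 and -0.94) and HIF targets (0.41 and 0.41). They were further apart for smooth muscle (0.37 and 0.02), general capillary endothelium (-0.48 and -0.11), T cells (-0.64 and -0.28) and multiciliated cells (0.11 and -0.41).

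The difference between the contrasts was tested gene by gene. No gene was called by edgeR (0% of 16638) at an adjusted p under 0.05, although 1546 had a p under 0.05 before adjustment. The other tools gave 17 genes (DESeq2) and none (limma-voom). Without the 3 libraries of conflicting labels edgeR called 1, and without hypoxia ABT-263 replicate 1 it called 2. The smallest unadjusted p values belonged to Gm3055, Kcnj13, Ces2e, Abcg3 and Pcx, and of these only Abcg3 was called with vehicle (13.6 to 9.31 CPM, -0.54). Cyp1a1 changed by -3.52 with vehicle and -0.94 with ABT-263, and the difference of 2.58 had an unadjusted p of 0.00823 and an adjusted p of 0.37. With ABT-263 the Cyp1a1 level varied widely in hypoxia (2.31 to 42.6 CPM, against 14.1 to 27.8 CPM in normoxia), so -0.94 averages unlike libraries. Dll4 changed by -1.94 and -1.56 (difference 0.38, adjusted p = 0.37). Edn1 changed by 1.20 and 0.23 (difference -0.97, adjusted p = 0.554), and Amd1 by 1.93 and 1.03 (difference -0.90, adjusted p = 0.381). These differences did not pass, which does not show that the responses were alike.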

How the data were processed

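RNA from whole mouse lung was sequenced in 22 libraries. The deposited table holds expected counts per gene, which the authors made with Trimmomatic, STAR, RSEM and the build GRCm38, per the submitters' processing notes (versions not given in the sources used here). Values were rounded to integers. Genes were kept by edgeR's filterByExpr with a minimum count of 10, libraries scaled with TMM factors, and 1 model of all 22 libraries in 4 groups fitted with edgeR 4.0.16 (robust quasi-likelihood, R 4.3.3), which gave each contrast and the difference between treatments. Benjamini-Hochberg adjusted p-values under 0.05 over all genes tested were called. The SE is the size of the log2 fold change divided by the root of the F statistic. Alternatives used limma 3.58.1 (voom), DESeq2 1.42.0, other scalings, filters and samples. Groups follow the sample titles. The vehicle libraries held 11884731 to 15230120 counts, which limits precision for genes of few counts. The chi-square of replicate pairs was 6.33 to 24.6 per gene. Levels are CPM and are not compared between genes, since they are not scaled by length.

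The rule for named genes took the 15 largest called log2 fold changes in each direction with at least 2 CPM, the 10 largest changes in CPM in each direction, up to 4 members of smallest p in each of 59 gene lists, the genes of smallest p for the difference between treatments, and Bmpr2, Cdkn1a, Bcl2, Bcl2l1, Bcl2l2, Hif1a, Epas1 and Ntrk2. The ranking by fold change left out gene models, named by number or clone, and immunoglobulin or T cell receptor segments. Not all genes taken by the rule are printed. Other genes, those shown library by library and the promoters shown were chosen after their values were seen. The comparison and the lists were chosen with earlier results of these data known. Lists are described by counts and medians, with no test of the list. The model code was tested on simulated data. Figures were drawn with matplotlib 3.10.9.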

Additional observations from a re-analysis of the deposited data

Results flagged for a closer look

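In 82 genes, the libraries of each group (164 groups in all) were examined for a highest or lowest library far from the others by Dixon's criterion. Chance alone marks about 1 in 20 groups, and 9 were marked, in 6 libraries. In normoxia replicate 5, Ntrk2 was at 13.9 CPM (9.87 to 11 in the other normoxia libraries) and Cdk19 at 73.6 CPM (58.4 to 61.2). In normoxia replicate 4, Serpinb10 was at 10.3 CPM (3.07 to 5.17) and Cxcr2 at 14.1 CPM (6.92 to 8.55). Sftpc was highest in normoxia replicate 1, at 30672 CPM (23042 to 25101). Among hypoxia libraries, Fst was lowest in replicate 5 at 10.5 CPM (13.6 to 14.7), and Csf3r was highest in replicate 1 at 20.5 CPM (9.27 to 13.1). Hypoxia replicate 6 had the lowest Hif1a at 39.3 CPM (50.9 to 55.7) and the highest Tagln at 886 CPM (588 to 675).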

How the results depend on the processing

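The count of 4380 genes was 4382 with RLE factors, 4358 with library totals, 4710 with DESeq2, 4395 with limma-voom, 3560 with no filter on low counts, 4381 with at least 1 CPM in at least 4 libraries, 4506 with only the vehicle libraries fitted and 4382 without haemoglobin genes. With a 2-fold minimum it was 435 (270 higher, 165 lower). Of the calls 51.4% were higher, and 44.7% with library totals. With each library left out in turn, 3319 to 4606 genes were called, 1702 to 2346 higher and 1617 to 2260 lower, and 2710 to 3579 were called with the same sign in ABT-263 lungs. The difference between treatments gave 17 genes with DESeq2, 1 without the 3 libraries of conflicting labels, and 0 to 2 with each library left out. Of 466 called genes among list members and genes shown or named, 339 stayed called with each vehicle library left out and 127 lost the call with at least 1. No named gene changed direction in any alternative run. Scgb1a1 reached an adjusted p of 0.0908 without the libraries of conflicting labels and Edn1 0.118 with treatment read from the tag, both by edgeR. No paired analysis was possible because the labels carry no replicate numbers shared between groups. Depth sets the floor for genes of low level, and normoxia libraries with no count of Olfr558 or Krt5 do not show that the gene was absent.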
